A study of Mus musculus with 5 samples.

Results

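Vim, Sparc, Snai1, S100a4, Lgals1, Mfap2, Dcn and Pdgfrl are 8 genes whose products are associated with mesenchymal cells, and they were followed here through 3 sorted populations of mouse mammary epithelium. They were taken by name, and all 8 were found among the 12293 genes of the deposited expression table. Each passed the filter on low values, a mean FPKM of at least 1 over the 5 libraries, as did 10626 genes in all. FPKM is the number of sequenced fragments of a gene per kilobase of transcript and scaled to the mapped fragments of the library.

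The study compared RNA from 3 epithelial populations of the hormone-treated mammary gland. All mice were adult virgins that had been ovariectomized and had carried hormone pellets for 14 days, so that no group is untreated. About 50 cells per library were sorted as Lin- and CD24+, that is, negative for a lineage panel whose markers the labels do not name and positive for a surface protein of epithelial cells. Their RNA was amplified with a modified Smart-seq2 protocol. Luminal cells, from the inner layer of the duct, were CD29low and GFP+ (1 library). Basal cells, from the outer layer that contains the contractile myoepithelium, were CD29hi and TdTomato+ (2 libraries). Luminal-derived basal cells (LdBC) were CD29hi like basal cells and GFP+ like luminal cells (2 libraries). The hormones, the driver of the fluorescent labels and the strain are not given in the sources used here. Nothing in the labels says whether the libraries of a group came from separate animals, so p-values cover the spread of these libraries alone, and it may be technical.

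In epithelial to mesenchymal transition, cells loosen their junctions, exchange keratin for vimentin filaments and take up a matrix-producing, motile state, under transcription factors of the Snail, Twist and Zeb families. Many of the same genes are also made by fibroblasts, pericytes and other stromal cells, and some are part of the ordinary programme of myoepithelial cells, which share contractile and matrix genes with smooth muscle.

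Sequences before a transcript start were found in RefSeq (GRCm38.p6) for 5 of the 8 genes, namely Vim, Snai1, S100a4, Mfap2 and Sparc. These starts are those of RefSeq, while the gene bounds given with each gene are those of GENCODE, which differ: the Vim and Sparc windows and 1 of the 2 Mfap2 windows lie inside those bounds, and the other Mfap2 window reaches into them. The 250 bases before each start were searched on both strands for the Snail-binding E-box, whose letters are CAGGTG. On the reverse strand this reads CACCTG. The same windows were searched for the AP-1 motif, TGANTCA, and for the TATA box, whose letters are TATAAA. No matches overlapped. Among 32851 windows of the same length, 17.2% hold the E-box, 6.7% the AP-1 motif and 12.4% the TATA box. The windows with a match are printed below 5′ to 3′ in lower case, with the motif in capitals, because they include the Snail gene itself and both genes with a TATA box.
Vim: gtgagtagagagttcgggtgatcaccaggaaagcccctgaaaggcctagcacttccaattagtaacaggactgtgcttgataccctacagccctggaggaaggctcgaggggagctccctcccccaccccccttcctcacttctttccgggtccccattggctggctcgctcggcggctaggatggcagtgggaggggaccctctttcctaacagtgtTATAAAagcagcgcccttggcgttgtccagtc
S100a4: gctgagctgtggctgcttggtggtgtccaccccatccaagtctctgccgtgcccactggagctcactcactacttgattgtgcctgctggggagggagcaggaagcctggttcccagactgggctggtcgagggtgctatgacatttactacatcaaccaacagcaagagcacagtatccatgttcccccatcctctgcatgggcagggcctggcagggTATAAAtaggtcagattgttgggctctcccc
Snai1: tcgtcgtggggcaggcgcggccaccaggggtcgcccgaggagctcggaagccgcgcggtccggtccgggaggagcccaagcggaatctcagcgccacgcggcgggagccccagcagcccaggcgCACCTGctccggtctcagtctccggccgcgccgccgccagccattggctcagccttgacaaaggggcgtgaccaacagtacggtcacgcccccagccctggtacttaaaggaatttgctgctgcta
The Vim window is chr2:13574061-13574310, plus strand, and its TATA box lies 32 bases before the start. The S100a4 window is chr3:90603520-90603769, plus strand, with the TATA box 31 bases before the start. The Snai1 window is chr2:167537945-167538194, plus strand, and its E-box lies 126 bases before the start. The windows of Mfap2, which has 2 starts, and Sparc (chr11:55420081-55420330, minus strand) held none of the 3 motifs. A match describes letters in the window and is neither a site nor a cause.

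The Luminal and Basal libraries carried the markers of their names, and the LdBC libraries carried luminal markers with fewer basal ones. The 12 luminal markers summed to an FPKM of 24093 in Luminal, against 27589 and 24604 in LdBC 1 and 2 and 1094 and 895 in Basal 1 and 2. The 10 basal markers summed to 3.51, then 1702 and 3000, then 13643 and 11664, and 9 of the 10 were listed at 0 in Luminal. In LdBC 1 and 2 the basal keratin Krt5 had 29.4 and 20.0, against 206 and 201 in Basal, and Trp63, the gene of the basal regulator p63, had 0 and 3.57, against 24.4 and 20.2. The luminal sums were mostly Krt8 and Krt18. Prlr, a receptor of hormone-sensing luminal cells, had 743 in Luminal and 7.41 and 68.6 in LdBC. Elf5 went the other way, with 9.94 in Luminal and 45.8 and 27.9 in LdBC, as did Kit, with 0 and then 14.4 and 4.36. Prlr, Elf5 and Kit are named after their values were seen. Of the 12 luminal markers, 6 were lower and 5 higher in both LdBC libraries than in Luminal. Over all 10626 genes tested, 4426 were lower and 3724 higher in this sense. The name LdBC is kept here as the label of a gate. Between 8041 (Luminal) and 10979 (Basal 1) genes were above 0 in a library. The Luminal library and LdBC 1 stood apart in values listed at 0: 162 and 26 genes were listed at 0 there although every other library had them at an FPKM of 10 or more, and that count was 0 to 5 in the rest. An exact 0 in a table without counts can be a failed estimate, and the depth of the libraries is unknown. A 0 is therefore written here as listed at 0, and a group whose libraries are all listed at 0 gets no fold or difference. In bulk samples, fewer cells of a type and less RNA per cell cannot be told apart.

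All 8 transcripts were lower in both LdBC libraries than in both Basal libraries, and they showed distinct patterns against the Luminal library. Vim, S100a4, Lgals1 and Sparc were high in Basal and low or listed at 0 in Luminal. Dcn, Mfap2, Pdgfrl and Snai1 were present in Luminal at 65.4% to 112% of the Basal mean, so that the LdBC libraries lay below both. That range depends on scaling. The deposited FPKM summed to 813063 in Luminal and to 457513 and 405093 in Basal 1 and 2. With median-of-ratios scaling, Basal was above Luminal by 0.63 for Dcn, 1.22 for Mfap2, 1.01 for Pdgfrl and 0.90 for Snai1. Levels are given here as FPKM, which is scaled by transcript length, and can be set side by side between genes. Every difference given here and below is one of log2(FPKM + 1), a scale that understates the change of low genes.

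**Figure D1:**
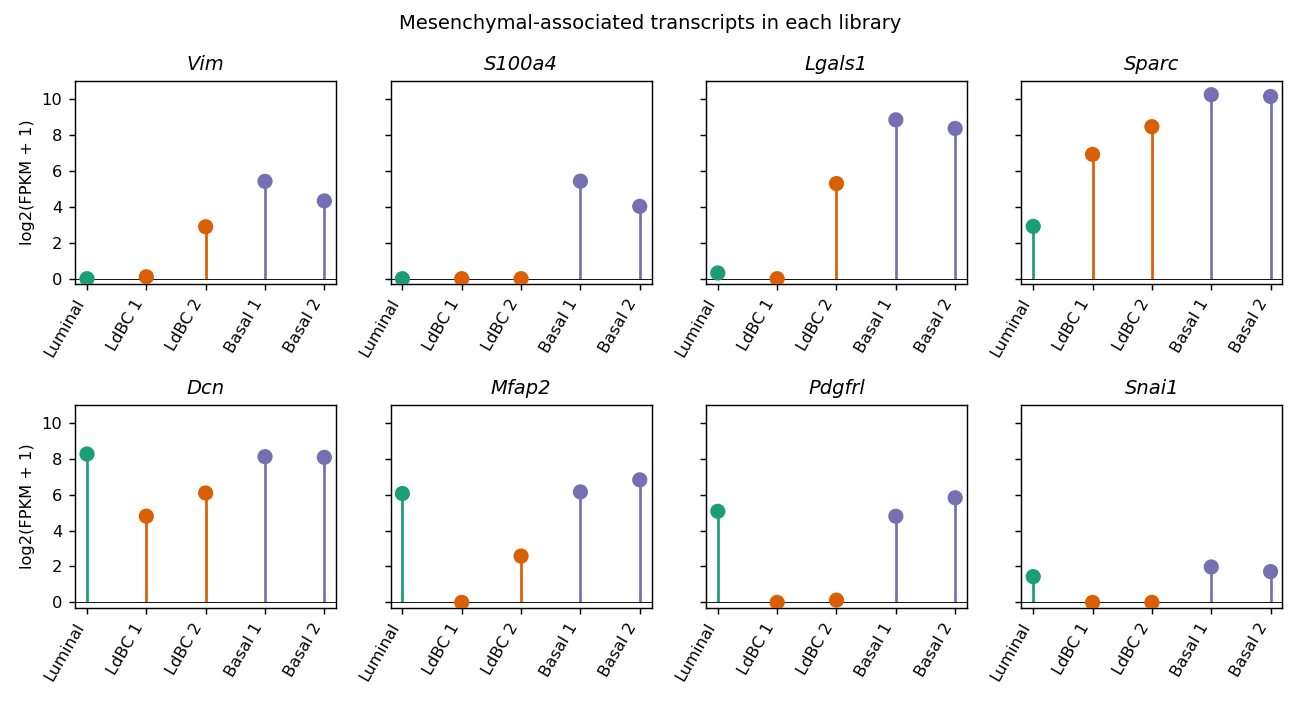
Level of each of the 8 genes in every library, as log2(FPKM + 1) on the vertical axis, with 1 point per library. In every panel the points of both LdBC libraries lie below those of both Basal libraries, while the Luminal point is near Basal for Dcn, Mfap2, Pdgfrl and Snai1 and at or near the bottom for Vim, S100a4 and Lgals1.

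Among the genes for proteins inside the cell, Vim encodes vimentin, the intermediate filament protein of mesenchymal cells (chromosome 2, 13573927 to 13582826, plus strand, 9 exons). Vim was listed at 0 in Luminal, at an FPKM of 0.0744 and 6.41 in LdBC 1 and 2, and at 41.8 and 19.1 in Basal 1 and 2. The LdBC and Basal libraries did not overlap, and within each group 1 library was well above the other. The Basal 1 value of Vim was 2.19 times that of Basal 2. The difference between LdBC and Basal did not pass (-3.38, SE 1.19, limma with Benjamini-Hochberg adjusted p = 0.254, lower in 2 of 2 LdBC libraries), and its 95% interval ran from -6.83 to 0.07. Without LdBC 1 it was -1.99, and the low mean of the group therefore rests in part on that library.

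S100a4 encodes a small calcium-binding protein, also called fibroblast-specific protein, that is linked to cell motility (chromosome 3, 90603771 to 90606045, plus strand, 3 exons). S100a4 was listed at 0 in Luminal and in both LdBC libraries and had an FPKM of 42.0 and 15.3 in Basal 1 and 2. It was thus found in the Basal libraries alone, at levels that differed 2.74 times between them. No difference is given. The limma adjusted p was 0.123 for LdBC against Basal and 0.0556 for Basal against Luminal, so neither passed. Of 1386 genes above 0 in both Basal libraries with a Basal mean of 20 to 50 FPKM, 4 (0.3%) were listed at 0 in both LdBC libraries, and S100a4 is among them. The other 3, named after their values were seen, were 2900093L17Rik, Fgf21 and Them5. In the same range 134 genes (9.7%) were listed at 0 in Luminal. S100a4 is overlapped on its own strand by the predicted gene Gm42674, and no source used here says how fragments were divided between them.

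Lgals1 encodes galectin 1, a secreted and cytoplasmic lectin that binds cell surface and matrix sugars (chromosome 15, 78926725 to 78930465, plus strand, 4 exons). Lgals1 had an FPKM of 0.245 in Luminal, was listed at 0 in LdBC 1 and at 38.2 in LdBC 2, and had 458 and 328 in Basal 1 and 2. The Basal libraries stood far above the rest, and the LdBC libraries, which differed strongly from each other, lay on either side of Luminal. The LdBC to Basal difference was -5.96 (SE 1.99, limma adjusted p = 0.235) and did not pass, and without LdBC 1 it was -3.31. Against Luminal, Basal was higher by 8.29 (SE 2.43, limma adjusted p = 0.102, in 2 of 2 libraries) and LdBC by 2.33 (SE 2.43, adjusted p = 0.527), and neither passed. The latter difference was 4.97 without LdBC 1 and 0.84 with quantile normalization. The genome holds 2 pseudogenes of Lgals1, on chromosomes 15 and 17, and its values are uncertain to the extent that fragments were shared with them.

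Among the secreted matrix proteins, Sparc encodes osteonectin, a collagen-binding glycoprotein of basement membranes and remodelling matrix (chromosome 11, 55394500 to 55423183, minus strand, 10 exons). Sparc was the most abundant of the 8 in Basal, and its FPKM was 6.52 in Luminal, 120 in LdBC 1, 351 in LdBC 2, 1208 in Basal 1 and 1127 in Basal 2. The groups formed 3 separate steps with no overlap, and both LdBC libraries stood far above Luminal. Sparc was higher in Basal than in Luminal by 7.28 (SE 0.72, limma with Benjamini-Hochberg adjusted p = 0.0349, in 2 of 2 Basal libraries), and it was the only member to pass in any of the 3 comparisons. That call ended when any of the LdBC or Basal libraries was left out, with differences of 7.23 to 7.33 and adjusted p of 0.0623 to 0.2. LdBC lay between the groups, higher than Luminal by 4.78 (SE 0.72, adjusted p = 0.0575) and at -2.50 from Basal (SE 0.59, adjusted p = 0.156), and neither of these passed. Without LdBC 1 they were 5.55 and -1.73.

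Dcn encodes decorin, a small proteoglycan that binds collagen fibrils and is among the most abundant products of fibroblasts (chromosome 10, 97479609 to 97518143, plus strand, 8 exons). The FPKM of Dcn was 305 in Luminal, 26.8 in LdBC 1, 67.0 in LdBC 2, 275 in Basal 1 and 268 in Basal 2. It was the most abundant of the 8 in the Luminal library, its Basal libraries were close to each other, and both LdBC libraries lay below all the others. Dcn did not pass for LdBC against Basal (-2.65, SE 0.51, limma adjusted p = 0.129) or against Luminal (-2.81, SE 0.62, adjusted p = 0.085). Between Basal and Luminal the difference of Dcn was -0.17 with an interval of -1.96 to 1.62 (adjusted p = 0.866), and its sign turned when the values were scaled by median of ratios (0.63) or quantile-normalized (0.78).

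Mfap2 encodes a glycoprotein of the fibrillin microfibrils (chromosome 4, 141010418 to 141015984, plus strand, 9 exons). Mfap2 had an FPKM of 65.6 in Luminal, was listed at 0 in LdBC 1 and at 4.96 in LdBC 2, and had 69.9 and 112 in Basal 1 and 2. The LdBC libraries lay below all the others, and Luminal lay just below Basal 1. Neither LdBC against Basal (-5.20, SE 1.03, limma adjusted p = 0.132) nor LdBC against Luminal (-4.77, SE 1.26, adjusted p = 0.107) passed, and without LdBC 1 these were -3.91 and -3.48. Basal and Luminal differed by 0.43 in Mfap2, with an interval of -3.20 to 4.06, by 1.22 with median-of-ratios scaling and by 1.37 with quantile normalization.

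Pdgfrl encodes a secreted protein with similarity to the ligand-binding part of the platelet-derived growth factor receptors (chromosome 8, 40926212 to 40990785, plus strand, 6 exons). Pdgfrl had an FPKM of 32.6 in Luminal, was listed at 0 in LdBC 1 and at 0.0906 in LdBC 2, and had 26.7 and 55.6 in Basal 1 and 2. It was therefore close to 0 in both LdBC libraries and clearly present in the other 3, with Luminal between the Basal libraries. Pdgfrl had the smallest unadjusted p of the 8 for LdBC against Basal (0.00105 in limma), with a difference of -5.24 (SE 0.55) and an interval of -6.83 to -3.65, and did not pass after adjustment (0.123). It came close to the threshold against Luminal (-5.01, SE 0.67, limma adjusted p = 0.053). Basal and Luminal differed by 0.24 in Pdgfrl (interval -1.71 to 2.18), by 1.01 with median-of-ratios scaling, by 1.18 with quantile normalization and by -0.28 without Basal 2.

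Snai1 encodes Snail, the zinc finger repressor of E-cadherin that gives the Snail family its name (chromosome 2, 167538195 to 167542814, plus strand, 3 exons). Snai1 was the least abundant of the 8 in Basal. It had an FPKM of 1.70 in Luminal, was listed at 0 in both LdBC libraries, and had 2.92 and 2.28 in Basal 1 and 2. The levels are low throughout, and Luminal lay below both Basal libraries. No difference is given against LdBC. Snai1 did not pass for LdBC against Basal (limma adjusted p = 0.133) or against Luminal (adjusted p = 0.14), and the Basal to Luminal difference was 0.41 (SE 0.45, adjusted p = 0.538). The difference was 0.90 with median-of-ratios scaling, and its direction turned with quantile normalization (-0.74).

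For LdBC against Basal, the comparison of cells that share the CD29hi gate, 0 of the 8 members passed an adjusted p under 0.05, where 0.00941% of all genes did. The single gene called was Krt18. At an unadjusted p under 0.05 in limma, 7 of the 8 were lower in LdBC, all but Vim, where 7.12% of all genes tested were. Both LdBC libraries lay below both Basal libraries in 8 of 8 members and in 18.6% of all genes tested. In the 6 members above 0 in both groups the median difference was -4.29, and over the 9826 genes of that kind it was 0.22. The median over all genes tested was 0.20 as deposited and -0.09 with median-of-ratios scaling, and every member that has a difference kept its sign in all alternatives. With 2 libraries against 2, a permutation of labels for 1 gene alone cannot go below p = 0.333.

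For LdBC against Luminal, which share the GFP label, 0 of 8 members passed, where 4.01% of all genes did. At an unadjusted p under 0.05, 4 of 8 were lower in LdBC (Dcn, Mfap2, Pdgfrl and Snai1), where 14.5% of all genes were, and 1 of 8, Sparc, was higher, where 16.7% were. The median difference of the 5 members above 0 in both groups was -2.81, beside -0.63 over 7484 such genes. With the single Luminal library assumed to vary like the others, these p-values hold no spread between Luminal libraries.

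For Basal against Luminal, 1 of 8 members passed (Sparc), where 8.31% of all genes did. At an unadjusted p under 0.05, 4 of 8 were higher in Basal (Vim, Sparc, S100a4 and Lgals1), where 16.5% of all genes were. The median of the 6 members above 0 in both groups was 0.42, beside -0.94 over 7509 genes. The median over all genes tested was -0.13 as deposited and 0.37 with median-of-ratios scaling for this comparison, and 0.01 and 0.27 for LdBC against Luminal. Calls of all genes split into 343 higher and 540 lower in Basal as deposited, and into 352 and 218 with median-of-ratios scaling. In both comparisons with Luminal, 0 genes passed when any 1 of the LdBC or Basal libraries was left out, so every call named here or below for them ended. The 3 comparisons share libraries and are not independent of each other.

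**Figure D2:**
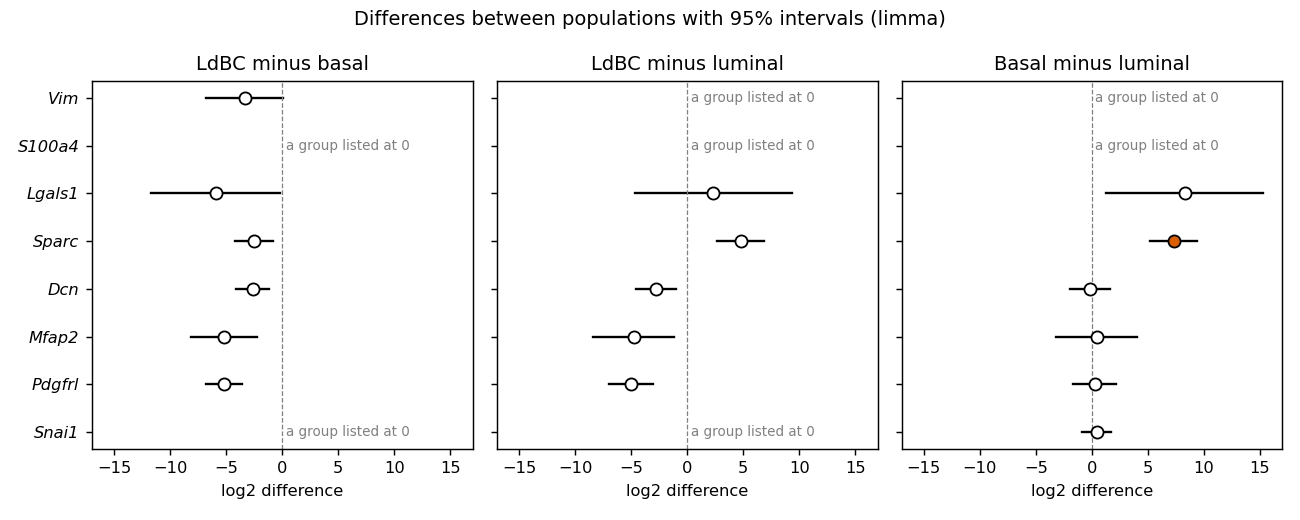
Difference in log2(FPKM + 1) of each member in the 3 comparisons, with its 95% interval from limma; members with a group listed at 0 in all libraries have no point. The filled point is the member with an adjusted p under 0.05. For LdBC against Basal all 6 points lie below 0, from -2.50 (Sparc) to -5.96 (Lgals1), and for Basal against Luminal those of Dcn, Mfap2, Pdgfrl and Snai1 lie near 0.

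Expressed as a share of the Basal mean, the members were not evenly low in LdBC. Sparc stood at 10.3% in LdBC 1 and 30.1% in LdBC 2, Dcn at 9.86% and 24.7%, and Vim at 0.244% and 21.1%. Lgals1 (9.7%), Mfap2 (5.44%) and Pdgfrl (0.22%) were above 0 in LdBC 2 alone, and S100a4 and Snai1 in neither. LdBC 2 was above LdBC 1 in all 6 members that were not listed at 0 in both. The median over the 8 members was 0% and 7.57%, and that over 10 basal epithelial markers was 9.0% and 23.9%. The keratin gene Krt14 stood at 30.7% and 40.6% and the smooth muscle actin gene Acta2 at 9.02% and 21.2%, and Sparc and Dcn lay above the median of the basal markers in both libraries. The receptor gene Oxtr, at 0% and 108%, was the only basal marker above 50% in either library. The basal markers, too, were higher in LdBC 2 than in LdBC 1 in 8 of 10 cases, all but Krt5 and Tagln. The same count was not made over all genes, of which LdBC 1 listed 25.2% at 0 and LdBC 2 13.6%. Whether the order is particular to these genes was therefore not tested.

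**Figure D3:**
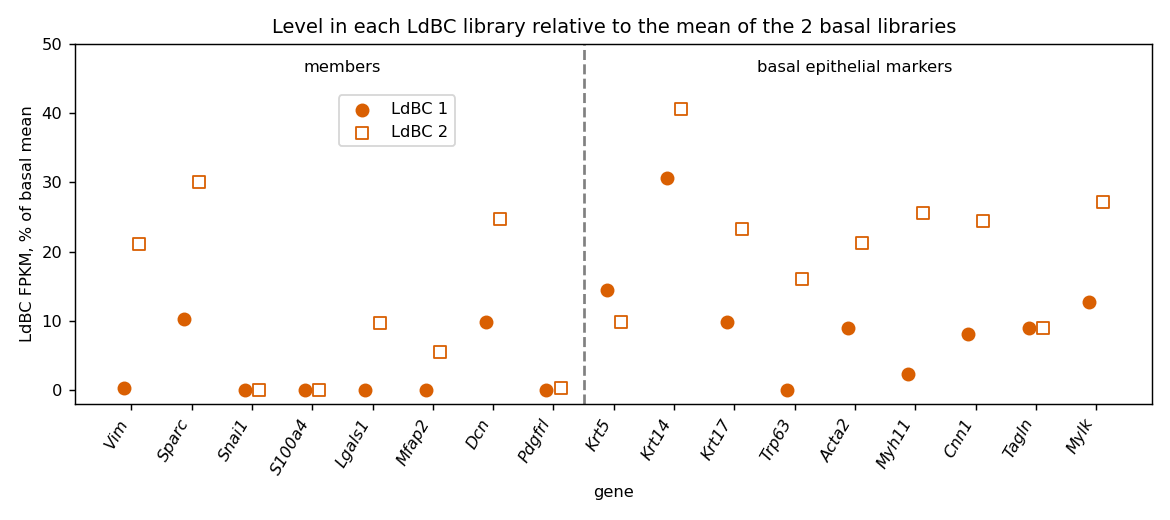
FPKM of each member (left) and of 9 basal epithelial markers (right) in LdBC 1 (filled) and LdBC 2 (open), as a percent of the mean of the Basal libraries. Oxtr, at 0% and 108%, is not drawn; the members lie between 0% and 30.1% and S100a4 and Snai1 are at 0% in both libraries.

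Relatives of the members from the same gene families did not share 1 pattern, and the most abundant relative of each is given here. S100a11, a broadly expressed S100 protein, stood at 3745 FPKM in Luminal, at 1606 and 1627 in LdBC and at 901 and 732 in Basal, the reverse order to S100a4. The Basal to Luminal difference of S100a11 was -2.20 and passed (limma adjusted p = 0.0349); this call and the others of this paragraph ended when any LdBC or Basal library was left out. Lgals3, the galectin 3 gene, had 279, then 1040 and 618, then 15.0 and 9.47, so that LdBC was highest and Basal lowest where Lgals1 was highest. Lgals3 was lower in Basal than in Luminal (-4.44, limma adjusted p = 0.0373) and did not pass for LdBC against Basal (5.96, adjusted p = 0.123). In the rest of the S100 and galectin lists, S100a1 was also lower in Basal than in Luminal, and S100a14, listed at 0 in Luminal, was higher in Basal and in LdBC. The last of these is named because it passed.

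For the matrix genes, the most abundant relatives were also low in LdBC 1. Bgn, the biglycan gene and closest in kind to Dcn, was listed at 0 in Luminal, with an FPKM of 9.05 and 50.7 in LdBC and 84.4 and 88.3 in Basal. Bgn was therefore low in Luminal where Dcn was high. Fstl1, a Sparc relative, had 0.0864, then 2.03 and 19.6, then 66.3 and 55.4, in the same order of groups as Sparc. Efemp2, of the elastic fibres to which Mfap2 belongs, had 107, then 3.47 and 39.3, then 34.3 and 48.9. LdBC 1 was the lowest library for Efemp2, and LdBC 2 lay between the Basal libraries. None of these 3 passed for LdBC against Basal (limma adjusted p = 0.359 for Bgn, 0.266 for Fstl1 and 0.551 for Efemp2). Of the small leucine-rich proteoglycans Fmod, and of the microfibril genes Fbln2, were higher in Basal than in Luminal, where both were listed at 0, and are named because they passed. Both calls ended when any LdBC or Basal library was left out.

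The remaining relatives were Gfap, Pdgfa and Snai2. Gfap, a filament gene best known from astrocytes, was listed at 0 in Luminal and both LdBC libraries and had an FPKM of 8.14 and 12.2 in Basal, the same libraries that held S100a4. Pdgfa, a ligand of the platelet-derived growth factor receptors, ranged from 30.2 to 55.2 over the 5 libraries, with no order by group. Its fellow ligand gene Pdgfc, listed at 0 in Luminal, had 15.2 and 14.5 in LdBC and 20.0 and 24.9 in Basal, and passed as higher in each than in Luminal. Snai2, the gene of the Slug repressor and a regulator of basal mammary cells, was listed at 0 in Luminal and had 36.6 and 49.2 in LdBC and 99.2 and 121 in Basal. Snai2 was thus well above 0 in both LdBC libraries, where Snai1 was listed at 0. Snai1 had only 2.92 and 2.28 in Basal, and a value listed at 0 shows little for so low a gene. Snai2 passed for LdBC against Luminal (limma adjusted p = 0.044) and Basal against Luminal (0.0349), and not for LdBC against Basal (-1.35, adjusted p = 0.153). The calls of Snai2 and Pdgfc ended when any LdBC or Basal library was left out.

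**Figure D4:**
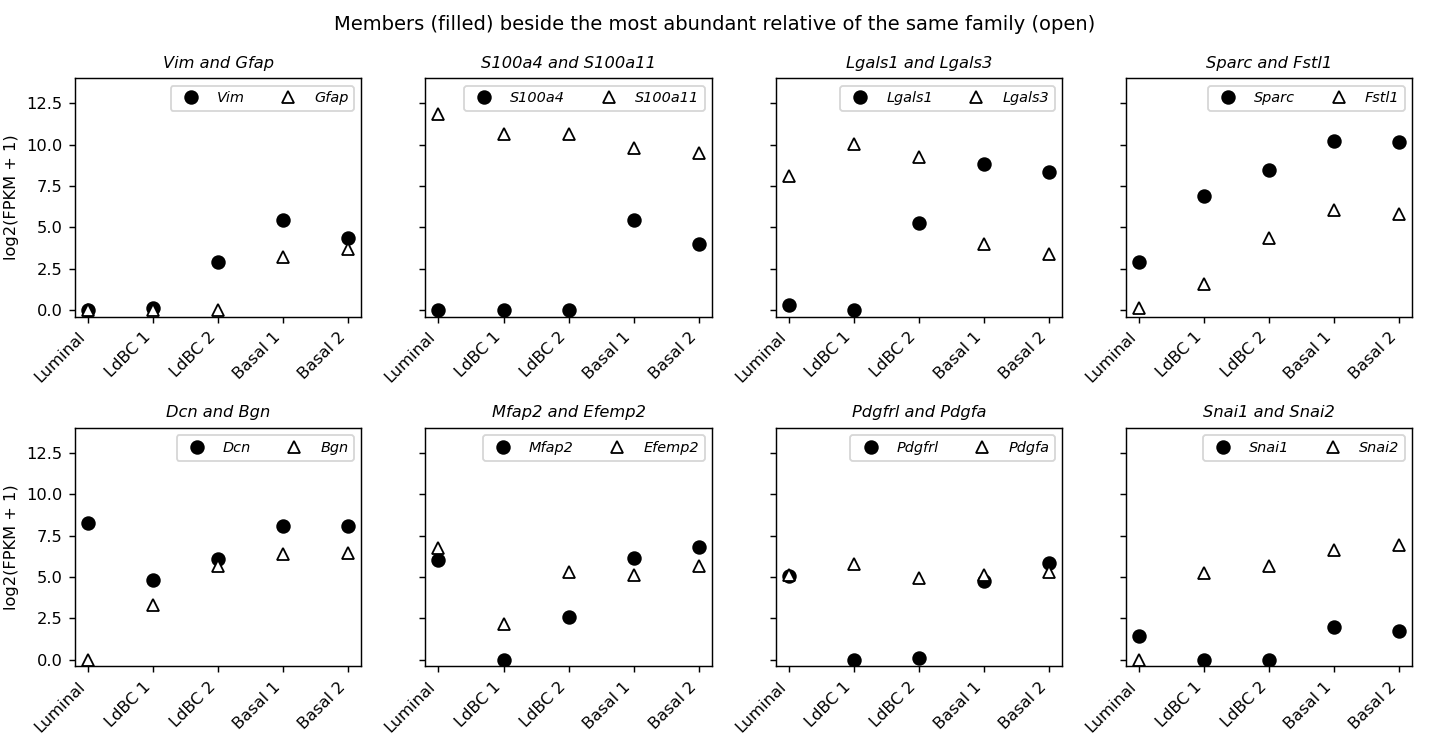
Level of each member (filled circles) and its most abundant family relative (open triangles) in the 5 libraries, as log2(FPKM + 1). S100a11 and Lgals3 stay high where S100a4 and Lgals1 are low, and Bgn and Fstl1 are at or near the bottom in Luminal and highest in Basal. Snai2 is above 0 in LdBC where Snai1, low in every library, is listed at 0.

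A wider list of 30 transcription factors and effectors of epithelial to mesenchymal transition had 21 genes in the table and 19 past the filter. In LdBC against Basal 0 passed in either direction. The median difference of the 16 above 0 in both groups was -0.69, beside 0.22 over 9826 such genes. In LdBC against Luminal 3 were higher (Snai2, Mmp2 and Cd44) and 0 lower, and in Basal against Luminal 4 were higher (these 3 and Axl) and 1 lower (Itgb6). Over all 10626 genes, 219 were higher and 207 lower in LdBC than in Luminal, and 343 higher and 540 lower in Basal than in Luminal. These calls ended when any LdBC or Basal library was left out. The last 2 are named because they passed. Cd44, a hyaluronan receptor, had 11.2 in Luminal, the LdBC libraries had 92.8 and 71.5, and Basal had 73.4 and 74.6, so that LdBC and Basal overlapped and both stood above Luminal. Mmp2, a matrix metalloproteinase, was listed at 0 in Luminal, with 37.4 and 49.0 in LdBC and 55.5 and 80.9 in Basal. Sdc1 (54.0 to 118 over the 5 libraries) and Itgav, an integrin subunit with 156 and 111 in LdBC and 47.1 to 50.4 elsewhere, did not pass. Cdh2 (N-cadherin) had 9.27 in Luminal, was listed at 0 in both LdBC libraries and had 0.35 and 0.82 in Basal, and Twist2 was above 0 in Basal 2 alone (1.55). Twist1, Zeb1, Zeb2 and Fn1 were not analysed here.

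The epithelial side of the same programme was a list of 24 adhesion genes and genes repressed in transition, all in the table. Its median was 2.33 for LdBC against Basal, beside 0.22 over the 9826 genes above 0 in both groups, as all 24 were. There 1 gene, Krt18, passed as higher and 0 as lower. Of the 24, 18 were higher and 3 lower in both LdBC libraries than in both Basal libraries. Over all 10626 genes, 3246 were higher and 1973 lower in this sense. The lower ones were Cdh3 (4.33 and 7.43 in LdBC, 44.0 and 42.6 in Basal), Dsp and Grhl2, named after their values were seen. Krt8, Krt18, Epcam, Cldn3 and Cldn7 are also among the luminal markers, so the 2 lists are not independent. In Basal against Luminal 0 were higher and 9 lower, among them Krt8, Krt18, Cldn4, Epcam and Spint2, the 5 most abundant of the list, where 343 of all 10626 genes were higher and 540 lower. Cdh1 (E-cadherin), the target of the Snail proteins, had 37.1 in Luminal, 113 and 108 in the LdBC libraries and 24.8 and 34.9 in Basal. Cdh1 was therefore highest in both LdBC libraries, with no overlap with the other 3, and did not pass (1.88, limma adjusted p = 0.123 against Basal). Epcam had 2215, then 2303 and 1871, then 387 and 337. In LdBC against Luminal 1 gene, the desmosome gene Pkp3, was higher and 0 lower. The calls against Luminal ended when any LdBC or Basal library was left out.

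Markers of stromal cells moved with the members in part, and their part in the results was not tested. Of 20 fibroblast markers 11 were in the table, and 9, among them Col1a1, were not analysed here. The number above 0 was 0 in Luminal, 2 in LdBC 1, 7 in LdBC 2, 11 in Basal 1 and 10 in Basal 2, and their summed FPKM was 0, then 4.39 and 77.2, then 249 and 222. Postn, the periostin gene, made up most of this sum, at 74.7 in LdBC 2 and 210 and 199 in Basal. The fibrillar collagen genes were near 0 in every library, Col1a2 at 1.40 and 2.43 in Basal and listed at 0 elsewhere, and Col3a1 at 1.73 and 2.04 in Basal and at most 0.07 elsewhere. Pdgfra, a receptor of fibroblasts, was at 2.79 in LdBC 1 and at 0.81 and 0.48 in Basal. In the Luminal library all 11 fibroblast markers were listed at 0 while Dcn had an FPKM of 305, Mfap2 65.6 and Pdgfrl 32.6. That library listed 34.6% of all genes at 0. Of genes above 0 in both Basal libraries with a Basal mean of 10 to 20 FPKM, it listed 19.4% at 0. Zeros of markers that are low in Basal therefore show little there. In Basal, Dcn stood at 275 and 268 beside the low collagen values given above.

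Endothelial markers and Fabp4 differed between the Basal libraries, and the sums of the other stromal lists differed less. Single markers of those lists differed too. In Basal 1 and 2, the fibroblast markers Cd34 and Dpt had 8.34 and 0.04, and 6.18 and 0. The immune marker Lyz2 had 13.1 and 0. Of the immune list, Laptm5 and Coro1a went the other way, at 1.10 and 0.97 in Basal 2 and 0 in Basal 1. These 5 are named after their values were seen. Of 12 pericyte markers 8 were in the table, with sums of 14.4 in Luminal, 33.0 in LdBC 1, 19.9 in LdBC 2, 44.1 in Basal 1 and 34.3 in Basal 2. Their members did not move together. Pdgfrb, a defining receptor, was at most 2.17. Rgs5 was listed at 0 in Luminal and LdBC 1 and had 5.24 in LdBC 2 and 20.8 and 16.1 in Basal. Cox4i2 was above 0 in Basal alone (7.0 and 2.31). Notch3 and Anpep were higher in both LdBC libraries than in both Basal libraries, and Mcam (0.134 to 14.4) had no order by group. The 11 of 14 endothelial markers summed to 128, then 9.92 and 31.9, then 257 and 7.64. Ly6c1 alone had 102 in Luminal, with Vwf at 19.4 and Plvap at 7.38, while Cldn5, Pecam1 and Eng were listed at 0 there. Cldn5 had 110 in Basal 1 and 0 in Basal 2, and Pecam1 11.3 and 0. Of 10 adipocyte markers only Fabp4, which capillary endothelium also expresses, was in the table, and the other 9 were not analysed here. Fabp4 had 473 in Basal 1, was listed at 0 in Basal 2, and had 9.97 in LdBC 2. Among the members, Vim (2.19 times), S100a4 (2.74), Lgals1 (1.4) and Snai1 (1.28) were higher in Basal 1 than in Basal 2. Sparc and Dcn differed little between them (1.07 and 1.03 times), and Mfap2 and Pdgfrl were lower in Basal 1 (0.622 and 0.479 times). The same count was not made over all genes, and a link between the members and these markers was not tested. The 6 of 16 immune markers summed to 132, then 34.7 and 48.3, then 20.5 and 5.93, and the 5 of 9 Schwann cell markers to 19.8, then 60.3 and 68.3, then 61.1 and 44.7. The immune sum of Luminal came from Lcp1 (98.5) and Cd68 (33.1) alone, with the rest of that list at 0. Of all these stromal and immune markers, Cnp was higher and Lcp1 lower in Basal than in Luminal, and none passed in the other comparisons. Both are named because they passed, and both calls ended when any LdBC or Basal library was left out.

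**Figure D5:**
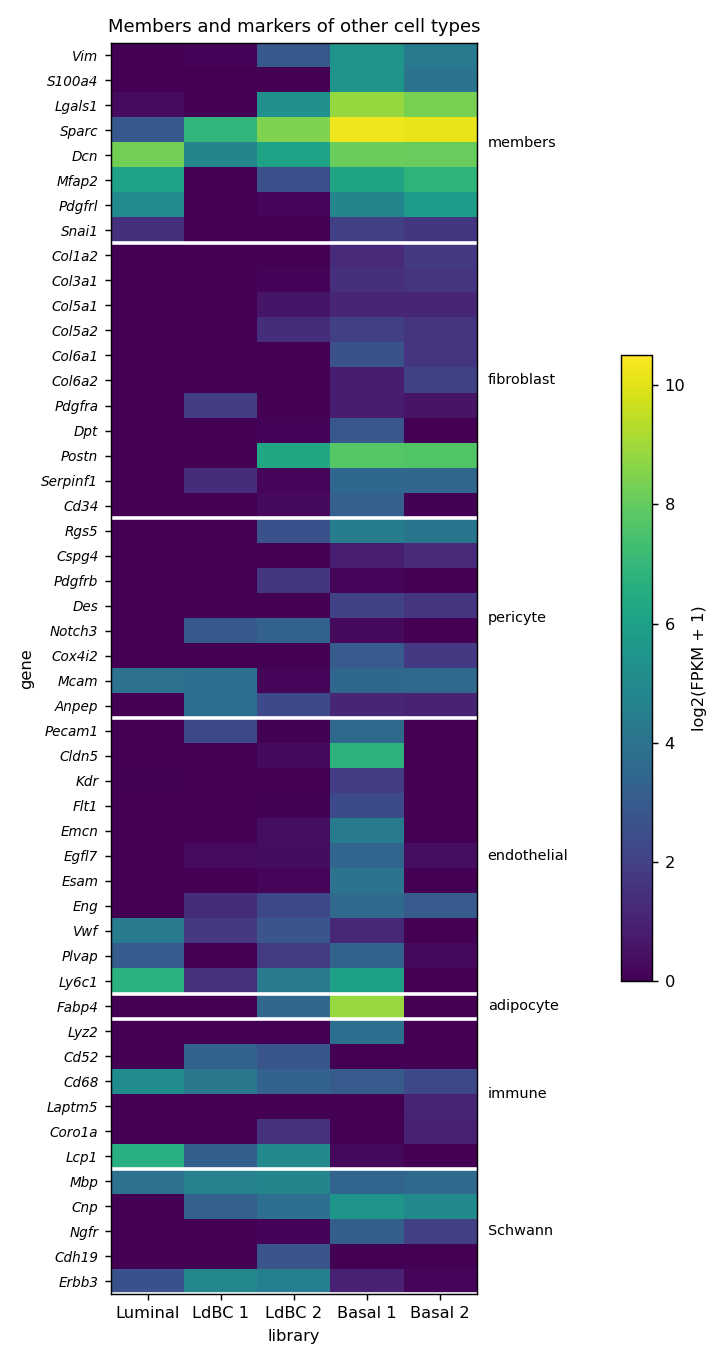
Level of the 8 members and of the markers of 6 other cell types (rows) in the 5 libraries (columns), as log2(FPKM + 1) from dark (0) to yellow. The fibroblast rows are at 0 in Luminal and dim elsewhere except Postn, and Cldn5 and Fabp4 are bright in Basal 1 (110 and 473 FPKM) and at 0 in Basal 2.

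The genes with the pattern most like each member were found by the distance between their log2(FPKM + 1) values over the 5 libraries, each gene centred on its own mean, among 9247 genes. These likenesses are descriptions over 5 points that share libraries. The nearest were Cbr3 for Vim (distance 0.58), Bok for S100a4 (0.45), the smooth muscle actin gene Actg2 for Lgals1 (0.61) and Odc1 for Sparc (0.73). Sparc also had the myosin kinase gene Mylk among its nearest 3 (0.81), and Lgals1 had Postn (1.58). For the members that were present in Luminal they were Pla2g4a for Dcn (0.32), Npw for Mfap2 (1.46), Ctps for Pdgfrl (0.78) and Dag1 for Snai1 (0.16). Ctps was also the second nearest to Mfap2 (1.63). A small distance does not mean a like level. Dag1 had 10.9 and 10.7 in LdBC, where Snai1 was listed at 0, and Pla2g4a was listed at 0 in LdBC 1, where Dcn had 26.8.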

How the data were processed

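RNA was measured in 5 libraries (Luminal 1, LdBC 2, Basal 2). The submitters' processing notes name TopHat2 2.0.4, Cufflinks 2.0.2, Cuffdiff 2.0.2 and the mouse build mm10, and no annotation. The values the authors deposited are log2(FPKM + 1), a form read from the table itself: with base 2, at least 99.69% return to an FPKM of 6 significant digits within 0.02 of the last digit. Every row reaches an FPKM above 1 in at least 1 library, so a gene below that in all is not analysed here. Of 12311 rows, 18 whose names had become dates were left out.

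Since FPKM values are not counts, limma 3.58.1 (R 4.3.3) with an intensity trend was fitted on log2(FPKM + 1), pseudocount 1, with a mean per group over all 5 libraries and the 10626 genes with a mean FPKM of at least 1. There were 2 residual degrees of freedom and 1.65 from the prior. Two-sided p-values were adjusted by Benjamini-Hochberg over all genes tested, with a threshold of 0.05. Each comparison's alternatives changed the pseudocount, filter, scaling, trend or libraries used. The 8 genes, the gene lists and the tests were chosen with earlier results of these data known. Beyond the 8, the genes named are the most abundant of each list, a fixed set of transition, collagen, receptor and lineage genes, and the nearest patterns; exceptions are stated where they stand. Gene positions are from GENCODE vM21 on GRCm38, the assembly of mm10, and the exon numbers are those of the principal transcript.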

Additional observations from a re-analysis of the deposited data

How the results depend on the processing

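For LdBC against Basal, the number of genes called was 1. It was 0 with median-of-ratios scaling, with pseudocount 0.1, without intensity trend and with the replicate block, 2 with a mean FPKM of at least 5, 4 with quantile normalization, and 0 to 0 when any library was left out. No member passed in any of these. Deviations of same-numbered libraries correlated at 0.012 over 10626 genes. The labels do not say whether the numbers mark pairs, and 1 correlation with 2 libraries per group cannot decide it. With the replicate block the lowest member adjusted p was 0.276. Alternatives chosen after seeing the data took the filter over the 4 LdBC and Basal libraries only. Without the Luminal library 56 genes and 0 members then passed (lowest member adjusted p 0.0612). With the replicate block as well, 434 genes and 6 members (Dcn, Lgals1, Mfap2, Pdgfrl, S100a4 and Sparc) passed in limma, with 1 residual degree of freedom and 10.22 from the prior. That prior was 2.46 with the block and the filter over all libraries.

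For LdBC against Luminal the 426 genes became 1175 with pseudocount 0.1, 4 without filter, 788 with a mean of at least 5, 258 with median-of-ratios scaling, 647 without trend, and 0 to 0 when a library was left out. Members called were 0, and became 2 (Pdgfrl and Sparc) with a pseudocount of 0.1 or a mean of at least 5, 1 with quantile normalization (Sparc) and 1 without trend (Pdgfrl). Calls split into 219 higher and 207 lower, 152 and 106 when scaled by median of ratios, 184 and 111 when quantile-normalized, 865 and 310 with pseudocount 0.1, and 135 and 348 with pseudocount 5. For Basal against Luminal the 883 genes became 1826, 488, 1621 and 570 with a pseudocount of 0.1, no filter, a mean of at least 5 and median-of-ratios scaling, and 0 to 0 when a library was left out. The 1 member called became 2 (S100a4 and Sparc) with a pseudocount of 0.1 or a mean of at least 5, and 0 to 0 when a library was left out. Its split was 428 and 359 with quantile normalization, 1101 and 725 with pseudocount 0.1 and 246 and 876 with pseudocount 5. Directions turned in Basal against Luminal for Dcn (0.63 with median-of-ratios scaling, 0.78 with quantile normalization), Snai1 (-0.74 with quantile normalization) and Pdgfrl (-0.28 to 0.75 when a library was left out). The cause was not tested.

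For LdBC against Basal, all differences kept their sign. The lowest for Dcn was -3.30, and the ranges over all alternatives were -7.63 to -3.31 for Lgals1, -6.96 to -3.73 for Mfap2, -8.13 to -3.12 for Pdgfrl, -3.27 to -1.73 for Sparc and -4.77 to -1.99 for Vim. Without LdBC 2, Lgals1, Mfap2 and Pdgfrl were listed at 0 in the LdBC library left, and no difference was computed. Snai1 did not reach a mean FPKM of 5 and was not tested there. About 50 cells per library and an unknown depth limit what a value listed at 0 can show, and the 1 Luminal library adds no measure of its own spread.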
